A study of Mus musculus with 13 samples.

Results

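Testosterone is made from cholesterol in the Leydig cells of the testis, which lie between the seminiferous tubules, and the germ cells within the tubules are not known for making it. The genes of this route were followed here through the 2 spermatogonial libraries of the series, in the order luteinizing hormone receptor, transcriptional regulator, cholesterol import, side-chain cleavage and the later enzymes. The list named 10 genes from textbook knowledge of the pathway, chosen with earlier results of these data known. Of these, 9 were measured (Lhcgr, Nr5a1, Star, Cyp11a1, Fdx1, Hsd3b1, Hsd3b6, Cyp17a1 and Hsd17b3) among 20662 listed gene symbols. Insl3, a peptide hormone of Leydig cells, was not analysed here.

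The series holds 13 RNA-seq samples of germ cells from C57BL/6 mice at postnatal week 8, of which 5 are spermatocytes, 5 spermatids, 1 mature sperm and 2 spermatogonia. The 2 spermatogonial samples, titled KIT_AGSC and THY1_AGSC, were analysed here, with 1 library each, and no values of the other 11 are analysed here. Their titles name surface antigens, KIT of differentiating and THY1 of undifferentiated spermatogonia, and the labels give no treatment or mutation. How the cells were isolated, and whether animals were pooled, is not given in the sources used here. With 1 library per group there is no replicate check and no p-value, so each difference is between these libraries, not between cell types.

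The antigen transcripts went against the titles. Kit was listed at 0 in the KIT-labelled library and at 36.7 FPKM in the THY1-labelled library. Thy1 was at 78.8 FPKM in the KIT-labelled library and at 0.723 FPKM in the THY1-labelled library. Within the tables the column headers are swapped relative to the titles, Thy1 over the values of KIT_AGSC and Kit over those of THY1_AGSC. The libraries are called by their titles throughout, and every direction would turn if the titles were exchanged. Values were taken as FPKM, fragments scaled by transcript length and by the library total. In the absence of read counts, depth was gauged by a low-end fragment unit, the FPKM multiplied by transcript length found at percentile 5 of expressed genes. That unit was 2735 in the KIT-labelled library and 427 in the THY1-labelled library, about 6.41 times larger in the KIT-labelled library. Some genes lay under 1 unit (Prlr at 0.187 in the KIT-labelled library), so a unit is a rough gauge and not a counted fragment. Genes at exactly 0 numbered 6866 in the KIT-labelled library and 5006 in the THY1-labelled library, and a 0 can be a failed estimate.

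As background, luteinizing hormone acts on its receptor LHCGR, raises cyclic AMP and drives both cholesterol delivery and transcription of the enzymes. STAR moves cholesterol to the inner mitochondrial membrane, where CYP11A1, fed with electrons by ferredoxin (FDX1), cuts the side chain to make pregnenolone. HSD3B enzymes, CYP17A1 and HSD17B3 then carry pregnenolone to testosterone, and the nuclear receptor NR5A1 (SF-1) binds the promoters of many of these genes.

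Lhcgr lies on chromosome 17, Nr5a1 on 2, Star on 8, Cyp11a1 and Fdx1 on 9, Cyp17a1 on 19 and Hsd17b3 on 13. The 2 HSD3B genes of the list are close relatives on chromosome 3. They are shown first, since fragments of near-identical copies can be assigned to the wrong gene and Hsd3b6, unlike Hsd3b1, was listed at 0 in the KIT-labelled library. In mouse testis Hsd3b6 is known as the adult Leydig form, whereas Hsd3b1 is also used by fetal Leydig cells. Their coding sequences (GENCODE M21 transcripts, 1122 bases each) differed at 112 bases, an identity of 90.02%, and the longest run without a difference spanned 72 bases. Below are the 90 coding bases with the most differences (bases 64 to 153 from the start codon), with the 19 differing bases in capitals.
Hsd3b1: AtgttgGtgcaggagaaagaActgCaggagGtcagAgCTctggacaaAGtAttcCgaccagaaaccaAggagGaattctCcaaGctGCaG
Hsd3b6: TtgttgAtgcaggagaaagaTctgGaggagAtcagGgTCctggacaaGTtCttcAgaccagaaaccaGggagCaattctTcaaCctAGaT
Of the 50-base words of each transcript, 38 were shared by this pair, 2.104% of the words of Hsd3b1 and 2.168% of those of Hsd3b6. Counting every other annotated gene, 5.0% of Hsd3b1 words and 16.1% of Hsd3b6 words had a copy elsewhere, most of the Hsd3b6 words in Hsd3b2. The value of Hsd3b6 is therefore uncertain, by an amount that these shares do not give. Hsd3b2 was at 1.62 FPKM in the KIT-labelled library and was listed at 0 in the THY1-labelled library. For the other 7 measured genes no 50-base word was found in another gene.

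Promoter windows, 250 bases before to 50 bases after the annotated start, came from RefSeq (GRCm38.p6, another build than the mm9 named in the submitters' processing notes). They covered 6 of the 9 genes in 7 windows, with 2 for Cyp11a1. Nr5a1, Star and Cyp17a1 had no entry. The windows of both HSD3B genes and of Hsd17b3 are shown because Hsd3b6 and Hsd17b3 were the genes listed at 0 in the KIT-labelled library. Capitals mark the GATA motif AGATAA on either strand.
Hsd3b1 promoter, chr3:98859745-98860044, minus strand: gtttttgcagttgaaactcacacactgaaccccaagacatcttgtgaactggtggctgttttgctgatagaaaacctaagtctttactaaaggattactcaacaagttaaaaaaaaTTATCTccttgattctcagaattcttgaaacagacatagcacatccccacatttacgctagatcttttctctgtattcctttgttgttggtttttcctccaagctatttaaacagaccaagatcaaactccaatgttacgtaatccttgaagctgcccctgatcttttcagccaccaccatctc
Hsd3b6 promoter, chr3:98814394-98814693, minus strand: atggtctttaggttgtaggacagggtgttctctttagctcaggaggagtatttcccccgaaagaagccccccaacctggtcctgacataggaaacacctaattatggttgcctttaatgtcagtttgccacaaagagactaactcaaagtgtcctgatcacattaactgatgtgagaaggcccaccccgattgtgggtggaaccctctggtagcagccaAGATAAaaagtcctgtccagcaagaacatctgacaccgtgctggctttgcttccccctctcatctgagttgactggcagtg
Hsd17b3 promoter, chr13:64089152-64089451, minus strand: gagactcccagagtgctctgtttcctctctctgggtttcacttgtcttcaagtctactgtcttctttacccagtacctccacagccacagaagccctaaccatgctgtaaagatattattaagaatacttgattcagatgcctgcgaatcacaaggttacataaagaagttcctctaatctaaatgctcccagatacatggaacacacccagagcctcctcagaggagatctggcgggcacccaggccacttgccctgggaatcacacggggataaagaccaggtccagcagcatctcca
The motif began at position -134 from the start site, on the reverse strand, in Hsd3b1 and at position -31, on the forward strand, in Hsd3b6. It was in 2 of the 7 windows, against 11.2% of 32851 promoters of this length. The NR5A motifs AAGGTCA and AAGGCCA, which do not overlap the GATA motif, were each in 0 of the 7 windows, against 4.72% and 6.20% of all promoters. These letters describe the windows only. The promoters of the HSD3B pair were 47.0% identical over 349 aligned columns.

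The 9 measured genes split into a single gene higher in the KIT-labelled library and a large group higher in the THY1-labelled library. Differences are given on the log2(FPKM + 1) scale as KIT-labelled minus THY1-labelled, which understates the change of low genes, and 2-fold is the size used for counting. Fdx1 alone, 1 of the 9, was higher by 2-fold or more in the KIT-labelled library, against 39.5% of the 15573 genes that reached 1 FPKM in either library. Counted as higher by 2-fold or more in the THY1-labelled library were 6 of the 9 genes, against 41.1% of all such genes. Nr5a1 and Star lay within 2-fold, against 19.4% of all, and Hsd3b6 and Hsd17b3, 2 of the 9, were listed at 0 in the KIT-labelled library, against 14.3%. Of the 7 genes above 0 in both libraries, 1 was higher in the KIT-labelled library (41.5% of all such genes), 4 in the THY1-labelled library (33.9%) and 2 lay within 2-fold (24.5%). The median difference of the 9 was -3.88, where the median over all genes was -0.0026, and over the 7 above 0 in both libraries it was -2.02 against 0.42. All 9 passed the minimum of 1 FPKM, but Hsd3b6 and Hsd17b3 passed it through the THY1-labelled library alone, so these counts describe the list and are no support for a difference. In bulk samples fewer cells of a type and less RNA per cell cannot be told apart.

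**Figure D1:**
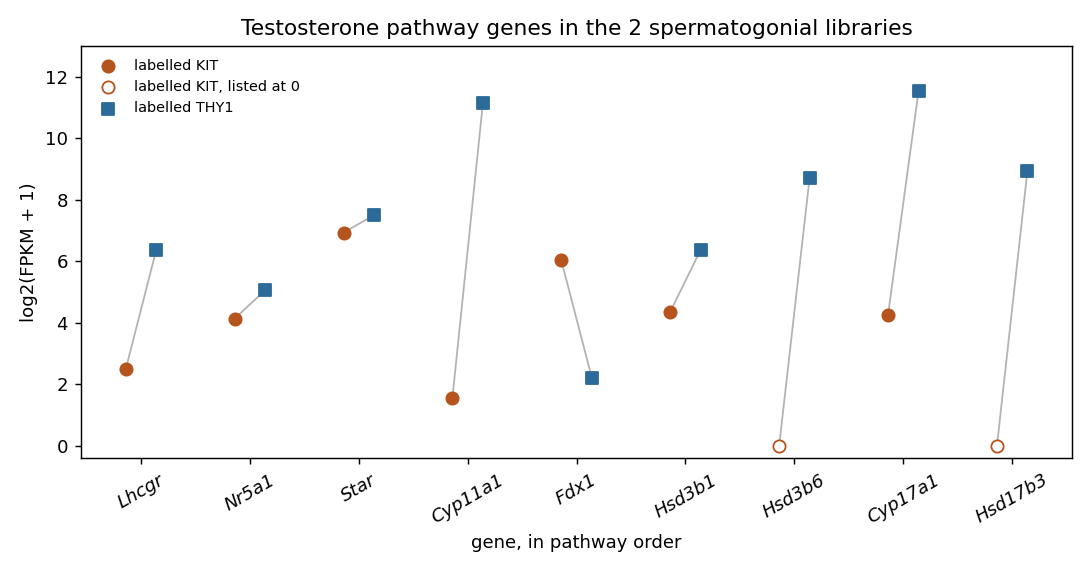
Level of each measured gene on the log2(FPKM + 1) axis, in pathway order, with the KIT-labelled library (circles) left of the THY1-labelled library (squares) and open circles for values listed at 0. At the deposited scale the squares stand above the circles for every gene but Fdx1 (under upper-quartile scaling Star is level), and Star and Nr5a1 have the shortest joins among the others.

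Reception of the hormone came first in the order. Lhcgr, the luteinizing hormone receptor, was at 4.62 FPKM in the KIT-labelled library and at 81.6 FPKM in the THY1-labelled library, a difference of -3.88. The value in the KIT-labelled library amounts to about 4.25 low-end fragment units (11.5 if the longest annotated transcript is used), against 481 in the THY1-labelled library. It was thus a mid-range gene in the KIT-labelled library, at percentile 39.5 of the genes above 0, and stood at percentile 91.4 in the THY1-labelled library. Nr5a1, the nuclear receptor that defines steroid-making cells and is also made in Sertoli cells, was at 16.6 FPKM in the KIT-labelled library and at 32.4 FPKM in the THY1-labelled library. Its difference of -0.93 fell short of 2-fold and passed it (-1.45) once the libraries were scaled to a median ratio of 1. An antisense gene, Nr5a1os, overlaps Nr5a1 on the opposite strand, and whether the counting used strand is not given in the sources used here.

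Star, the cholesterol import protein, was the gene with the most similar levels. It was at 121 FPKM in the KIT-labelled library and at 181 FPKM in the THY1-labelled library, a difference of -0.58. Under other scalings of the libraries this difference ran between -1.13 and 0.0006, so no direction can be read for Star. It was the highest gene of the list in the KIT-labelled library, at percentile 95.4 of the genes above 0, and at percentile 97.1 it was only the fifth highest in the THY1-labelled library.

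The enzyme that follows Star had the widest difference of those above 0 in both libraries. Cyp11a1, which cleaves the cholesterol side chain, was at 1.97 FPKM in the KIT-labelled library and at 2272 FPKM in the THY1-labelled library, a difference of -9.58. Among all listed genes it ranked 11012 from the top in the KIT-labelled library and 8 in the THY1-labelled library. The value in the KIT-labelled library equals about 1.07 low-end fragment units, so it may rest on very few fragments and the size of the ratio is loosely set. The long noncoding gene Gm17322 overlaps Cyp11a1 on the same strand. Fdx1, the ferredoxin that hands electrons to CYP11A1 and to other mitochondrial enzymes of many tissues, ran the other way. It was at 64.3 FPKM in the KIT-labelled library and at 3.65 FPKM in the THY1-labelled library, a difference of 3.81, and was the lowest gene of the list in the THY1-labelled library. Those values stand for about 20.6 and 7.48 low-end fragment units, KIT-labelled first, a smaller gap than that of the FPKM values.

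The enzyme and its electron donor therefore stood in opposite order within each library, a comparison that scaling between libraries cannot change. Cyp11a1 was at 0.0306 times the level of Fdx1 in the KIT-labelled library and at 623 times its level in the THY1-labelled library. Against Star, it was at 0.0163 times in the KIT-labelled library and at 12.6 times in the THY1-labelled library. Both ratios in the KIT-labelled library rest on Cyp11a1 at about 1.07 low-end fragment units, so their sizes are loosely set.

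The 2 HSD3B genes, whose enzymes turn pregnenolone into progesterone, differed in their balance. Hsd3b1 was at 19.5 FPKM in the KIT-labelled library and at 82.3 FPKM in the THY1-labelled library, a difference of -2.02. Hsd3b6 was listed at 0 in the KIT-labelled library and was at 419 FPKM in the THY1-labelled library. Hsd3b1 was thus the only one of the pair above 0 in the KIT-labelled library, while Hsd3b6 was at 5.10 times the level of Hsd3b1 in the THY1-labelled library. A low-end fragment unit is worth about 1.78 FPKM for Hsd3b6 in the KIT-labelled library, and the part of low depth in its 0 was not tested. With both genes summed, 5 of 8 values were at least 2-fold higher in the THY1-labelled library.

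Cyp17a1, which makes androgens from progestins and needs electrons from cytochrome P450 reductase, was the highest gene of the list in the THY1-labelled library. It was at 18.1 FPKM in the KIT-labelled library and at 2945 FPKM in the THY1-labelled library, a difference of -7.27. Its rank from the top of all listed genes was 4063 in the KIT-labelled library and 4 in the THY1-labelled library. The value in the KIT-labelled library stood for about 7.91 low-end fragment units. Cyp17a1 was at 9.23 times the level of Cyp11a1 in the KIT-labelled library and at 1.30 times in the THY1-labelled library. The ratio in the KIT-labelled library is loosely set, with Cyp11a1 at about 1.07 low-end fragment units there. Hsd17b3, the last step, reduces androstenedione to testosterone in the adult testis. It was listed at 0 in the KIT-labelled library and was at 488 FPKM in the THY1-labelled library, the third highest level of the list there. Values of 0 were common even among abundant genes. Of 131 genes at 400 FPKM or more in the THY1-labelled library, a bound chosen after the values were seen, 31 (23.7%) were listed at 0 in the KIT-labelled library, Hsd3b6 and Hsd17b3 among them.

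**Figure D2:**
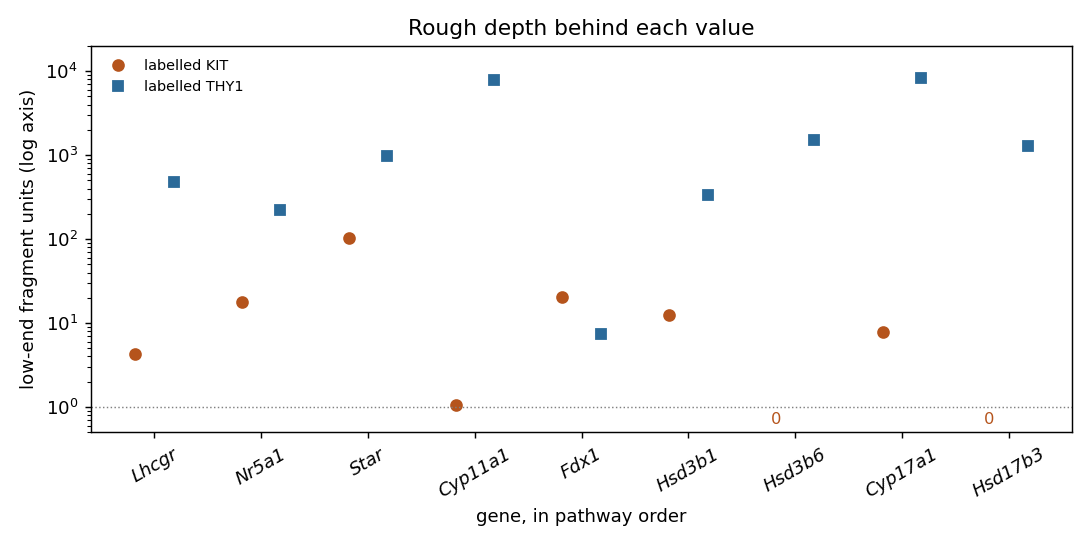
Rough depth behind each value in low-end fragment units (log axis, dotted line at 1 unit), with the KIT-labelled library (circles) left of the THY1-labelled library (squares) and 0 printed where a value is listed at 0. In the KIT-labelled library the units run between 1.07 for Cyp11a1 and 103 for Star, and in the THY1-labelled library between 7.48 for Fdx1 and 8224 for Cyp17a1.

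Summed over the 9 genes, the route made up 246 FPKM in the KIT-labelled library and 6505 FPKM in the THY1-labelled library. That is 0.0575% of the summed FPKM in the KIT-labelled library and 1.30% in the THY1-labelled library, leaving out the RNase P component Rpph1. In the KIT-labelled library the order of levels was Star, Fdx1, Hsd3b1, Cyp17a1, Nr5a1, Lhcgr and Cyp11a1, with Hsd3b6 and Hsd17b3 at 0. In the THY1-labelled library it was Cyp17a1, Cyp11a1, Hsd17b3, Hsd3b6, Star, Hsd3b1, Lhcgr, Nr5a1 and Fdx1. Hsd3b1 (82.3 FPKM) and Lhcgr (81.6 FPKM) were neighbours of almost equal level in the THY1-labelled library, and Cyp17a1 (18.1 FPKM), Hsd3b1 (19.5 FPKM) and Nr5a1 (16.6 FPKM) in the KIT-labelled library, and without replicates their order cannot be told. In the KIT-labelled library 1 gene, Star, was at or above percentile 90 of the genes above 0. In the THY1-labelled library 7 of the 9 were.

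**Figure D3:**
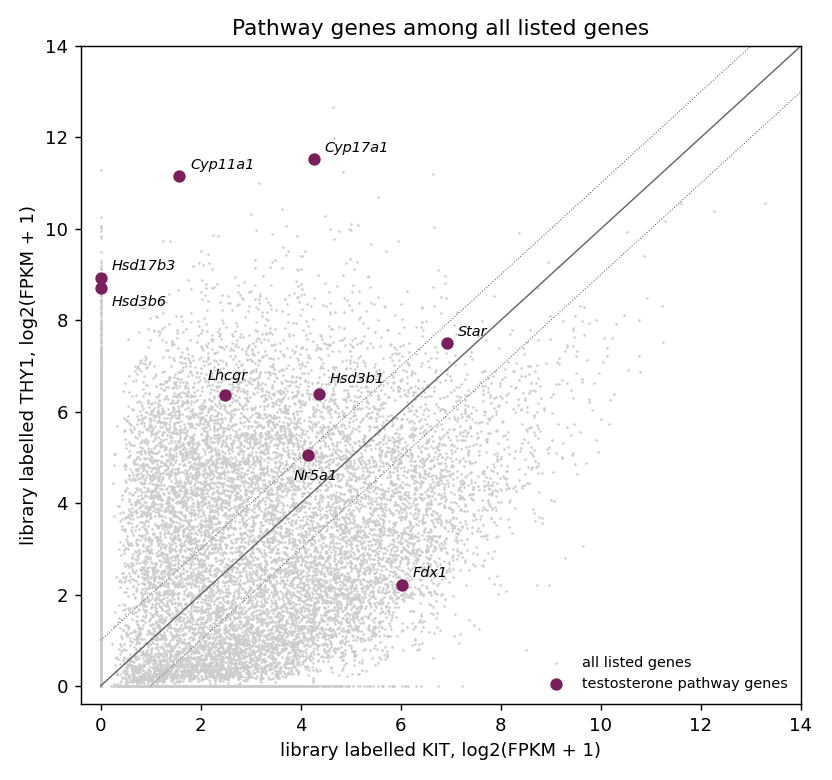
Each listed gene (grey) by its log2(FPKM + 1) in the KIT-labelled library (horizontal) and in the THY1-labelled library (vertical), with the 9 pathway genes in purple, the line of equal values and dotted lines at 2-fold. Cyp11a1 and Cyp17a1 lie at the top edge of the cloud, Hsd3b6 and Hsd17b3 on the vertical axis at 0 in the KIT-labelled library, and of the 9 only Fdx1 lies below the diagonal.

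Genes with levels most like these were sought by the distance between log2(FPKM + 1) values over the 2 libraries, the KIT-labelled library given first in each pair. Closest to Cyp17a1 were Crisp2 (24.4 and 4082 FPKM, distance 0.62) and Meig1 (27.7 and 2410 FPKM, distance 0.65). Both are known from meiotic and later germ cells. Closest to Cyp11a1 were Clu, a secreted chaperone abundant in Sertoli cells (1.62 and 848 FPKM, distance 1.43), and Arl2bp (3.71 and 928 FPKM, distance 1.45). Hsd3b1 was closest to Fam24a (19.7 and 80.2 FPKM, distance 0.039) and Hif1a (20.1 and 81.1 FPKM, distance 0.048), and Lhcgr to Sltm (4.59 and 80.0 FPKM, distance 0.029). Over only 2 libraries such likeness is a description and no more.

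Other genes around the pathway were taken from lists drawn up by role, though with earlier results of these data known. Over all of them, 110 genes were in the tables and 93 reached 1 FPKM in either library. Of these, 34 (36.6%) were at least 2-fold higher in the KIT-labelled library and 47 (50.5%) in the THY1-labelled library, where all genes gave 39.5% and 41.1%.

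The electron-transfer partners stood together. All 4 genes that reached 1 FPKM were higher by 2-fold or more in the THY1-labelled library, opposite to Fdx1. Fdxr, the reductase that loads FDX1, was at 2.34 FPKM in the KIT-labelled library and at 67.4 FPKM in the THY1-labelled library. Por, the reductase that serves CYP17A1, was at 12.3 FPKM in the KIT-labelled library and at 168 FPKM in the THY1-labelled library. Cyb5r3 was at 17.97 against 67.7 FPKM and Cyb5b at 1.43 against 13.5 FPKM, KIT-labelled first. Within the pair that feeds CYP11A1, Fdxr was at 0.0364 times the level of Fdx1 in the KIT-labelled library and at 18.5 times in the THY1-labelled library. In the KIT-labelled library Fdxr stood for about 1.01 low-end fragment units, Cyb5b for 1.83 and Por for 3.36. The sizes of these differences are therefore loosely set.

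Mitochondrial cholesterol import beyond Star was mixed, with 3 of 11 genes higher in the KIT-labelled library and 6 in the THY1-labelled library. Tspo, an outer-membrane protein long linked to cholesterol import, was at 65.9 FPKM in the KIT-labelled library and at 14.9 FPKM in the THY1-labelled library. Prkar1a, a regulatory subunit of protein kinase A, was at 1.11 against 127 FPKM and the cholesterol carrier Stard4 at 2.40 against 25.9 FPKM. Stard3 and Stard7 were listed at 0 in the KIT-labelled library and were at 13.2 and 30.2 FPKM in the THY1-labelled library.

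Signalling between the receptor and transcription also split, with 4 of 18 genes higher in the KIT-labelled library and 9 in the THY1-labelled library. Gnas, the stimulatory G protein subunit that couples LHCGR to adenylyl cyclase, was at 110 FPKM in the KIT-labelled library and at 364 FPKM in the THY1-labelled library. The cyclase Adcy3 was at 190 against 11.5 FPKM, the kinase subunit Prkar2a at 4.43 against 246 FPKM and the phosphodiesterase Pde8a at 11.7 against 147 FPKM, KIT-labelled first. Crem, a cyclic AMP-responsive factor best known from spermatids, was listed at 0 in the KIT-labelled library and was at 89.7 FPKM in the THY1-labelled library.

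Transcriptional regulators of steroid-making cells showed no common direction, with 8 of 22 higher in the KIT-labelled library and 10 in the THY1-labelled library. Cebpb was at 33.9 FPKM in the KIT-labelled library and at 2.24 FPKM in the THY1-labelled library, and Gata6 at 14.02 against 0.717 FPKM. The glucocorticoid receptor Nr3c1 was at 66.1 against 9.46 FPKM, and Nr0b2, a corepressor of nuclear receptors, was at 8.41 FPKM against a listed 0. Gata4, singled out after its value was seen because it is a known partner of NR5A1, had the opposite order at 2.24 FPKM in the KIT-labelled library and 18.4 FPKM in the THY1-labelled library.

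Enzymes that use or remove androgens were divided as well, with 6 of 15 genes higher in the KIT-labelled library and 8 in the THY1-labelled library. Hsd17b1, which makes estradiol in the ovary, was at 48.6 FPKM in the KIT-labelled library and at 0.734 FPKM in the THY1-labelled library. Sult1e1, the estrogen sulfotransferase of Leydig cells, was listed at 0 in the KIT-labelled library and was at 278 FPKM in the THY1-labelled library. Hsd17b12 and Hsd17b11 were also listed at 0 in the KIT-labelled library, and were at 144 and 71.3 FPKM in the THY1-labelled library. The median difference of the list was -1.47, and 1.82 over its 10 genes above 0 in both libraries, so the sign of the median follows the genes listed at 0.

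Adrenal steroid genes mostly ran opposite to the testosterone genes, with 6 of 7 genes of the glucocorticoid and mineralocorticoid list higher in the KIT-labelled library. Cyp11b1, the last enzyme of corticosterone synthesis, was at 216 FPKM in the KIT-labelled library and at 14.8 FPKM in the THY1-labelled library. Cyp11b2, the aldosterone synthase, was at 131 against 4.93 FPKM, and Hsd11b2, which inactivates corticosterone, at 232 against 3.69 FPKM. Mrap, the accessory protein of the melanocortin receptors, was the exception at 30.4 FPKM in the KIT-labelled library and 323 FPKM in the THY1-labelled library. The corticotropin receptor Mc2r, a defining adrenal cortex marker, was listed at 0 in both libraries. Of the other HSD3B relatives and Nsdhl, 2 of 4 were higher in each library, with Nsdhl of cholesterol synthesis at a listed 0 against 71.8 FPKM and Hsd3b7 of bile acid synthesis at 2.31 against 8.58 FPKM.

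Receptors for Leydig and related hormones included 5 of 13 higher in the KIT-labelled library and 8 in the THY1-labelled library. Rxfp2, the receptor of INSL3, was at 84.7 FPKM in the KIT-labelled library and at 0.906 FPKM in the THY1-labelled library. Rxfp4, a receptor for a related insulin-like peptide, was at 92.3 against 4.84 FPKM. The prolactin receptor Prlr was at 0.411 FPKM in the KIT-labelled library and at 55.1 FPKM in the THY1-labelled library. Pdgfra, the receptor carried by Leydig precursors, was listed at 0 in the KIT-labelled library and was at 16 FPKM in the THY1-labelled library.

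**Figure D4:**
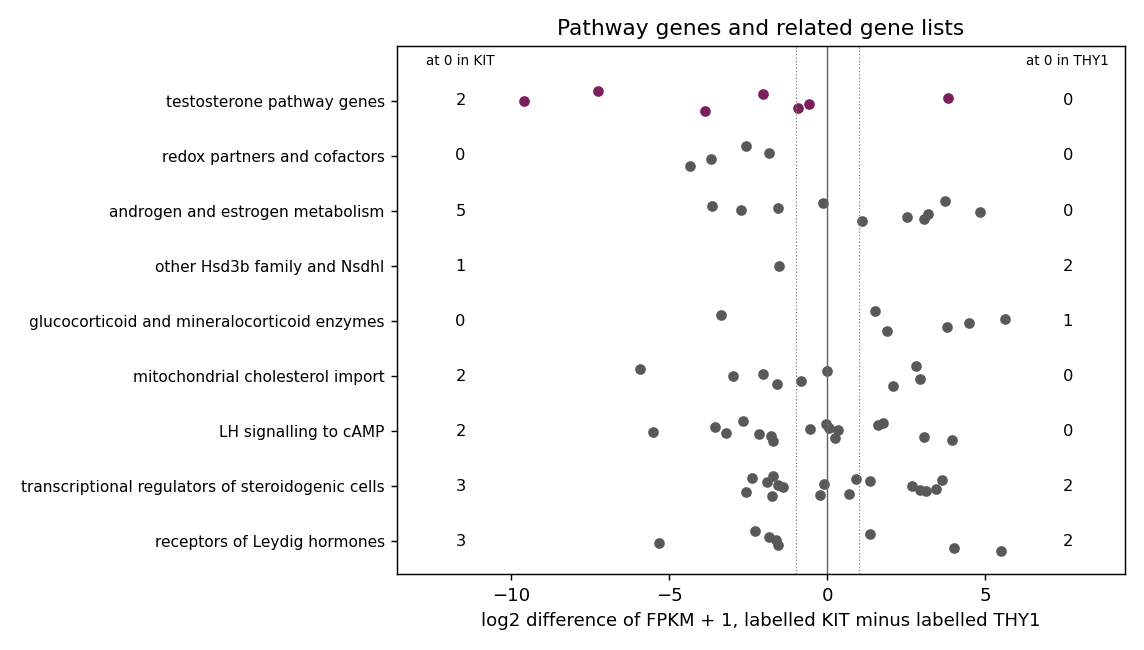
Log2 difference of FPKM + 1, KIT-labelled minus THY1-labelled, for each gene above 0 in both libraries and reaching 1 FPKM, by list, with dotted lines at 2-fold and, at the left and right edges, the number of genes listed at 0 in each library. The testosterone pathway (purple) and the electron-transfer partners lie mostly left of 0, the glucocorticoid and mineralocorticoid enzymes mostly right of it, and the remaining lists lie on both sides, apart from the HSD3B relatives with 1 gene left of 0.

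Markers of other cells also differed between the libraries, in both directions. Leydig genes outside the pathway were above 0 for 14 of 22 genes in the KIT-labelled library and for 20 of 22 in the THY1-labelled library, with sums of 257 and 12499 FPKM. Ptgds, prostaglandin D synthase, alone made up 24.1 FPKM of the sum in the KIT-labelled library and 6463 FPKM in the THY1-labelled library. Lcn2 was at 7.94 against 2065 FPKM. Counted by gene, 20 of this Leydig list passed the 1 FPKM minimum. Of those, 12 were up by 2-fold or more in the THY1-labelled library, 3 in the KIT-labelled library, and 5 lay within 2-fold. The 3, named for their direction, were Hpgds (56.5 and 7.65 FPKM), Igf1 (5.75 and 2.27 FPKM) and Hsd11b1 (7.14 FPKM and a listed 0), KIT-labelled first. The spermatocyte list summed to 212 FPKM in the KIT-labelled library and 5117 FPKM in the THY1-labelled library. The spermatid list had the opposite order, at 5723.5 FPKM in the KIT-labelled library and 4005 FPKM in the THY1-labelled library, with 10 of its 16 genes at least 2-fold higher in the KIT-labelled library and 6 in the THY1-labelled library. Prm1, a protamine, alone made up 2406 FPKM of the sum in the KIT-labelled library and 184 FPKM in the THY1-labelled library. The median of the spermatid list had the other order, at 41.6 FPKM in the KIT-labelled library and 102 FPKM in the THY1-labelled library. Odf2 was at 98.8 against 2358 FPKM, KIT-labelled first. The order of the sums thus leans on Prm1. The Sertoli list summed to 113 FPKM in the KIT-labelled library and 1436 FPKM in the THY1-labelled library. Of these sums Clu alone made up 1.62 and 848 FPKM, and Vim a listed 0 and 375 FPKM. By genes it was near even, with 8 of the 20 genes reaching 1 FPKM at least 2-fold higher in the KIT-labelled library and 9 in the THY1-labelled library. The defining Sertoli receptor Fshr was at a listed 0 and 0.294 FPKM, KIT-labelled first. The peritubular and stromal list summed to 271 and 908 FPKM, KIT-labelled first, but Sparc alone made up 15.1 and 680 FPKM of these. By genes that list was even, with 7 of its 14 genes that reached 1 FPKM in either library at least 2-fold higher in each, and Tagln, a smooth muscle gene, was at 155 FPKM in the KIT-labelled library and 47.2 FPKM in the THY1-labelled library. The macrophage list summed to 299 and 1010 FPKM, KIT-labelled first, of which Aif1 alone made up 24.5 and 880 FPKM. By genes it leaned the other way, with 7 of the 14 genes that reached 1 FPKM at least 2-fold higher in the KIT-labelled library and 5 in the THY1-labelled library. The endothelial list summed to 85.8 FPKM in the KIT-labelled library and 14.6 FPKM in the THY1-labelled library. Against the labelled cell type, 13 of 21 undifferentiated spermatogonial genes were above 0 in the KIT-labelled library and 14 of 21 in the THY1-labelled library. A value above 0 was common, with 13796 and 15656 of all 20662 listed genes, KIT-labelled first. By difference the undifferentiated list leaned to the KIT-labelled library. Of its 11 genes that passed the 1 FPKM minimum, 9 were up by 2-fold or more there, and 1 in the THY1-labelled library. The sums of this list were 499 and 71.2 FPKM, KIT-labelled first, and the defining marker Zbtb16 was listed at 0 in both. Differentiating spermatogonial genes summed to 68.9 FPKM in the KIT-labelled library and 231 FPKM in the THY1-labelled library. The part of Leydig or other somatic cells in the pathway values was not tested.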

How the data were processed

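RNA of 2 spermatogonial samples was used, 1 library each. The deposited tables give 1 value per gene symbol under a header without a unit. The values were taken as FPKM, since the authors used Cufflinks 2.1.1 per the submitters' processing notes, which also name TopHat 1.4.1, CASAVA and mm9 without roles. Per the labels' protocols, libraries were directional and made after removal of ribosomal RNA. Very abundant noncoding RNA in that total lowers other FPKM values. Rpph1 alone took 71.8% of the summed FPKM in the KIT-labelled library and 37.9% in the THY1-labelled library. For annotation, multiple alignments and pooling the sources used here give nothing.

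Tables were assigned to samples as recorded and groups taken from titles. Differences used log2(FPKM + 1), with genes counted at 2-fold where either library reached 1 FPKM. No test was possible with 1 library per group. The counting rule was run on simulated data, and no conclusion about these 2 libraries, whose depths differ, is drawn from that run. Transcript lengths and shared words came from GENCODE M21, where 18395 symbols (89.0%) matched. Sequence identity was computed on coding bases, not on proteins as first planned. Depth is unknown, and the low-end fragment unit used genes with 1 transcript over 1000 bases and the median annotated transcript of each gene.

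The members, lists and rules were chosen with earlier results of these data known. Named genes are the members, Kit and Thy1, per pathway list up to 4 with the largest difference among those reaching 5 FPKM and the 2 with the highest mean, the 2 highest of each marker list, the 2 nearest in level to chosen members, and genome neighbours. Not every gene this rule names is printed. Exceptions are marked, or are the defining markers Fshr, Zbtb16 and Mc2r. Python 3.11.15, numpy 2.4.6, pandas 2.3.3 and Biopython 1.88 were used.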

Additional observations from a re-analysis of the deposited data

How the results depend on the processing

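The alternatives were scaling (to a median ratio of 1, an equal upper quartile or an equal sum without Rpph1), a pseudocount of 0.1, no filter, a minimum of 5 FPKM, genes above 0 in both libraries, and Hsd3b1 and Hsd3b6 summed. Fdx1 was the 1 gene higher in the KIT-labelled library in each of them. Those higher in the THY1-labelled library numbered 8 with a median ratio of 1, 4 among genes above 0 in both libraries, 5 with the HSD3B pair summed, and 6 otherwise. The scalings to the median ratio, the upper quartile and the sum without Rpph1 moved the median of all genes by -0.46, 0.49 and 0.19 on the log2 scale. Star was at -1.13 and 0.0006 under the first and second of these, and Nr5a1 at -1.45 under the first. The difference of Cyp11a1 ran between -10.10 and -9.17, and that of Fdx1 between 3.26 and 4.38. Of the 16 counts for the 8 pathway lists, 6 moved by over 1.5 times under at least 1 alternative. With a median ratio of 1, hormone receptors higher in the KIT-labelled library numbered 2. With a minimum of 5 FPKM they numbered 3, regulators higher in the THY1-labelled library 5, and HSD3B relatives higher in the KIT-labelled library 0. Among genes above 0 in both libraries, 3 androgen-metabolizing genes and 1 HSD3B relative were higher in the THY1-labelled library, and receptors numbered 3 and 5, KIT-labelled first. The unit ratio between libraries was 6.46 at percentile 2 and 5.98 at percentile 10. No paired analysis was possible because each spermatogonial group has 1 library. Low depth in the KIT-labelled library limits Hsd3b6 and Hsd17b3, listed at 0 there. It also limits Cyp11a1 and Lhcgr, the members above 0 that are under 5 low-end fragment units there at the median transcript length. Other named genes were low there too, such as Prlr (0.187 units), Prkar1a (0.389), Stard4 (0.843), Gata4 (1.26) and Prkar2a (1.41). The sizes of their differences are loosely set as well.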

Other observations

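The genes next to the pathway genes on the genome, named by their order in GENCODE M21, were also listed. Beside Cyp11a1, Ccdc33 was at 1.83 FPKM in the KIT-labelled library and at 45.1 FPKM in the THY1-labelled library, and Sema7a at a listed 0 against 9.03 FPKM. Beside Cyp17a1, Sfxn2 was at 1.54 against 16.1 FPKM and As3mt at 3.83 against 7.45 FPKM. Beside Lhcgr, Gtf2a1l, a germ cell transcription factor gene, was at a listed 0 against 64.5 FPKM. Beside Star, Lsm1 was at 24.5 against 2.17 FPKM and Ash2l at 147 against 96.5 FPKM. Beside Hsd17b3, Ptch1, the hedgehog receptor, was at 0.817 against 5.55 FPKM. Beside Fdx1, Arhgap20 was at 1.08 against 4.37 FPKM, opposite in direction to Fdx1.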
